A study of Mus musculus with 16 samples.

Results

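Gene expression in cells sorted from the cortex of mice with stroke that had been given exosomes, labelled MCAO+AS-exos, was set against that in Sham mice. The 4 libraries of each group were chosen by their titles, so 8 of the study's 16 libraries were compared, over all genes. In this model of ischemic stroke, MCAO, the middle cerebral artery is occluded. All mice were C57BL/6, and no transgene or deletion in the recipients is labelled. The MCAO+AS-exos mice had the occlusion and then 150 µg of plasma exosomes through the tail vein, starting with the surgery and repeated every 3 days. MCAO+Ctrl-exos mice received exosomes on the same schedule, MCAO mice had the occlusion without exosomes, and Sham mice are labelled untreated. Exosome donors were Apoe knockout mice kept on normal chow or fed a western diet for 12 weeks to make them atherosclerotic. Which donor diet each exosome code stands for is not spelled out. The age of the mice, the interval between surgery and sorting, and whether each library is 1 mouse are not given in the sources used here, so p-values measure the spread between libraries. Cells were sorted on CD45 and CD11b and are labelled microglia, and no batch or preparation date is labelled. That staining also takes in monocytes, neutrophils and other macrophages.

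Microglia are the resident macrophages of the brain. At rest they keep a program of surface receptors and transcription factors that depends on TGF-beta, including the ADP receptor P2ry12, the fractalkine receptor Cx3cr1 and the transcription factor Sall1. After a stroke, microglia and the myeloid cells that enter from blood clear lipid-rich debris, store iron and lipid, present antigen and secrete cytokines. Ferroptosis is a form of cell death driven by iron and lipid peroxides. It is opposed by the glutathione peroxidase Gpx4 and by antioxidant enzymes, many of them targets of the transcription factor NRF2.

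The deposited values were read as FPKM, fragments scaled by transcript length and library size, and were analysed as log2(FPKM + 1). Of 13982 genes, the 10846 that reached 1 FPKM in 4 or more of the 16 libraries were tested. The FPKM summed to 758283 to 983648 per library, and 8813 to 10003 genes reached 1 FPKM; sequencing depth is unknown. MCAO+AS-exos replicates 1 to 3 were closely alike, with Pearson correlations of 0.979 to 0.985 across genes, which are not independent replicates, whereas replicate 4 correlated with them at 0.905 to 0.921. Replicate 4 had 1266 genes (11.7%) more than 2-fold above all of the other 3 libraries and 661 (6.09%) more than 2-fold below them. For replicates 1 to 3 these counts were 6 to 41. Without counts it cannot be tested whether replicates 1 to 3 differ by more than sampling noise, so counts that move by more than 1.5 times without replicate 4, or with replicates 1 to 3 averaged to 1 library, are given both ways. On the first principal component, 50.6% of the variance, the MCAO+AS-exos libraries lay at -34.4 to -43.4, and the Sham libraries lay at 108 to 135.

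**Figure D1:**
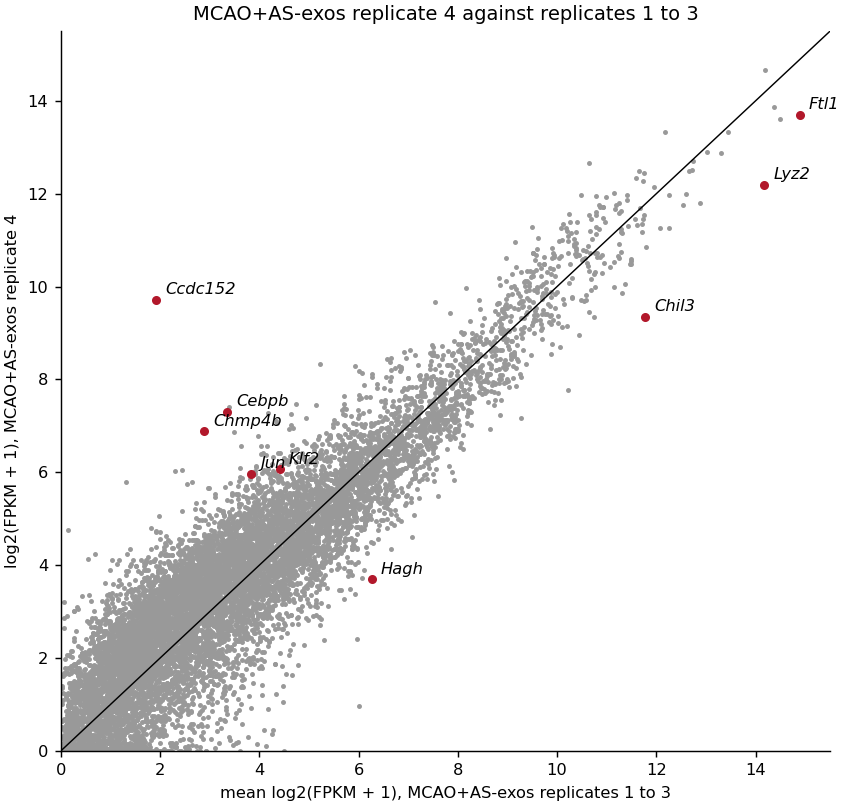
Level of each tested gene in MCAO+AS-exos replicate 4 (vertical axis) against its mean in MCAO+AS-exos replicates 1 to 3 (horizontal axis), both as log2(FPKM + 1), with the line of equal levels. Points above the line include Ccdc152 and Cebpb, at 838 and 157 FPKM in replicate 4, and points below it include Hagh, Lyz2, Ftl1 and Chil3.

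Cells from the MCAO+AS-exos mice had low levels of the resting microglial transcripts and carried abundant transcripts of lipid handling, antigen presentation, scavenging and iron storage, together with markers of infiltrating monocytes and neutrophils. The changes were large: calprotectin (S100a8), MHC class II (H2-Aa), arginase (Arg1), galectin-3 (Lgals3) and osteopontin (Spp1) were each at 934 FPKM or above in every MCAO+AS-exos library and at 11.1 FPKM or below in every Sham library. The cystatin Cst3, the most abundant transcript of every Sham library, was at 2551 to 3192 FPKM in MCAO+AS-exos libraries, against 117893 to 139126 FPKM in Sham libraries. At an adjusted p below 0.05 (limma, Benjamini-Hochberg), 2242 genes rose (20.7% of those tested) and 2077 fell (19.1%), so 39.8% of tested genes were called. The log2 fold change was above 3 for 409 of the called genes and below -3 for 218. The median over all tested genes was 0.03. Values of the 4 and 4 libraries did not overlap for 3960 genes (36.5%). Without replicate 4 there were 4273 calls, and with replicates 1 to 3 averaged there were 2663, 1155 of them lower. All fold changes here are differences of log2(FPKM + 1), which understate the change of genes at low levels. A gene present mainly in 1 of the groups enters the test through that group, so the counts for lists of marker genes below describe only members with a measurable level. The direction of such a member is largely set by the filter. The lists were chosen with earlier results of these data known, and some genes are in more than 1 list. List counts against Sham are descriptions, are not independent of each other, and stand beside the 20.7% higher and 19.1% lower of all tested genes.

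**Figure D2:**
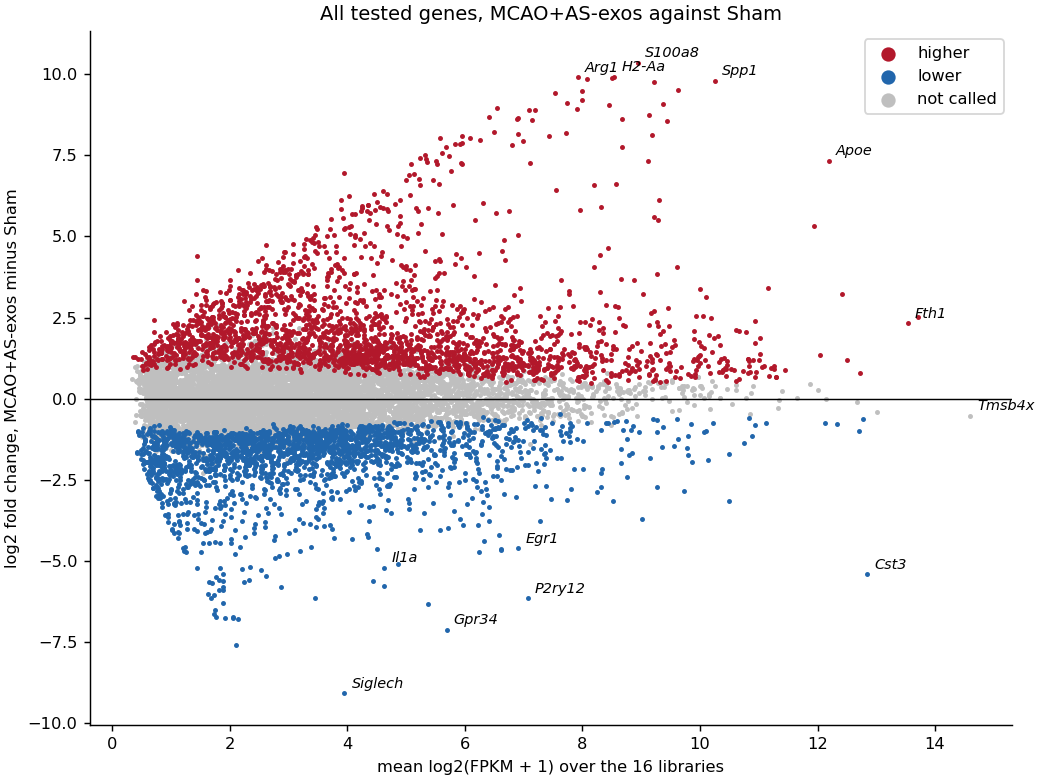
Difference of mean log2(FPKM + 1), MCAO+AS-exos minus Sham (vertical axis), against the mean level over the 16 libraries (horizontal axis), 1 point per tested gene, coloured by call at an adjusted p of 0.05. S100a8 lies at the top at 10.35 and Siglech at the bottom at -9.07, while Cst3 combines a high mean level with a difference of -5.40.

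Of the homeostatic microglia list, 0 members rose and 30 of 30 fell, with a median log2 fold change of -3.77. The shares of all tested genes were 20.7% and 19.1%. The list was chosen with earlier results of these data known, so this count is a description and not a test. Its members Trem2, Cx3cr1 and Mertk are counted again in lists below. P2ry12, the receptor by which microglial processes sense ADP, was at 69.3, 47.2, 91.1 and 37.4 FPKM in the MCAO+AS-exos libraries and at 5377, 3998, 4323 and 3156 FPKM in the Sham libraries. The groups were far apart, with the highest MCAO+AS-exos library well below the lowest Sham library, at a log2 fold change of -6.14 ± 0.31 (SE; adjusted p = 5.17e-12). Siglech, a sialic acid-binding receptor of microglia that is also made by plasmacytoid dendritic cells, was at 0.74, 2.94, 7.38 and 3.22 FPKM in MCAO+AS-exos libraries, against 1978, 2334, 2217 and 1969.7 FPKM in Sham libraries. It was close to undetected in replicate 1 and low in the other 3, with the largest fall of the named genes (-9.07 ± 0.43, adjusted p = 1.55e-12). The transcription factor Sall1, which maintains microglial identity, had 0.14, 0.3, 0.28 and 0.54 FPKM in MCAO+AS-exos libraries and 112, 96, 105 and 93.3 FPKM in Sham libraries. Every MCAO+AS-exos library was below 1 FPKM and every Sham library was near 100 (-6.29 ± 0.32, adjusted p = 4.68e-12).

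Other members of the resting program fell by differing amounts. Tmem119, a microglial surface protein, was at 39.8, 35, 48.8 and 50.4 FPKM in MCAO+AS-exos libraries and at 207, 532, 361 and 726 FPKM in Sham libraries. Its Sham values were themselves widely spread, and no library of either group reached the other (-3.23 ± 0.43, adjusted p = 5.82e-06). For the fractalkine receptor Cx3cr1, MCAO+AS-exos libraries held 37.1, 30.7, 37.3 and 47.7 FPKM, against 845, 886, 893 and 1354 FPKM in Sham libraries (-4.66 ± 0.33, adjusted p = 8.00e-10). Gpr34, a lysophosphatidylserine receptor, stood at 26.3, 21.3, 24.1 and 6.61 FPKM in MCAO+AS-exos libraries and at 4385, 2803, 2726 and 1292 FPKM in Sham libraries. Replicate 4 was the lowest MCAO+AS-exos library and replicate 4 the lowest Sham library, and the groups were far apart (-7.12 ± 0.48, adjusted p = 4.55e-10).

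The secreted protease inhibitor Cst3, cystatin C, which inhibits cysteine cathepsins, was at 3192, 3103, 3042 and 2551 FPKM in MCAO+AS-exos libraries and at 117893, 139126, 120712 and 122161 FPKM in Sham libraries. The 4 libraries of each group lay close together and the groups were far apart (-5.40 ± 0.22, adjusted p = 9.63e-14). In Sham libraries the 10 most abundant genes took 27.5 to 30.6% of all FPKM, with Cst3 first; in MCAO+AS-exos libraries the share was 13.3 to 19.1%. Among the 12 falls named for their size were also the crystallin Crybb1 (-6.13 ± 0.77), the matricellular protein Sparc (-6.32 ± 0.87) and Hpgd, which breaks down prostaglandins (-5.60 ± 0.48). For Sparc the MCAO+AS-exos libraries ranged widely, at 0.9, 20.3, 25.4 and 41.4 FPKM, against 765, 1374, 941 and 1843 FPKM in Sham libraries. Replicate 1 alone was below 1 FPKM, and no library reached the Sham range. The small GTPase gene Rhob (-4.71 ± 0.38), the zinc-finger gene Cxxc5 (-4.69 ± 0.55), Ecscr (-5.78 ± 0.70) and Xlr (-5.10 ± 0.54) were further members of that set.

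TGF-beta signalling, on which the resting program depends, had 1 of 13 tested members higher, Bambi, and 6 lower (median -0.75). The shares of all tested genes were 20.7% and 19.1%. With replicates 1 to 3 averaged, and without Sham replicate 2 or 3, none was higher. The type 1 receptor Tgfbr1 was at 23.7, 17.4, 17.1 and 44.5 FPKM in MCAO+AS-exos libraries and at 546, 282, 396 and 303 FPKM in Sham libraries (-3.90 ± 0.31, adjusted p = 5.92e-09). Smad3, which carries the signal to the nucleus, fell (-2.26 ± 0.41, adjusted p = 0.000202). The feedback inhibitors Smad7 (-2.89 ± 0.37) and Skil (-2.28 ± 0.35) fell as well, so the members that fell include both transducers and inhibitors of the pathway. The ligand gene Tgfb1 had a log2 fold change of -0.36 (adjusted p = 0.566) and was not called.

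**Figure D3:**
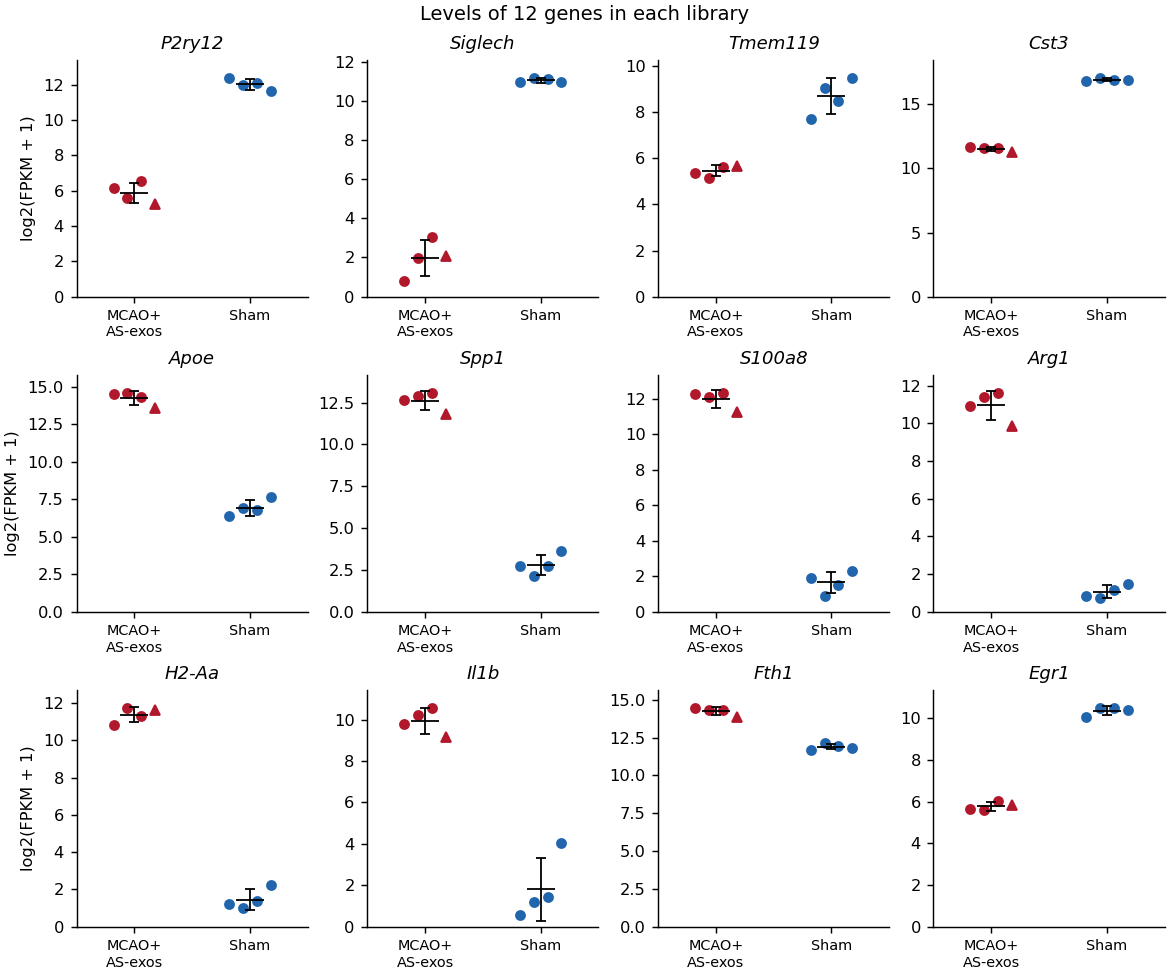
Levels of 12 genes as log2(FPKM + 1) in the 4 MCAO+AS-exos libraries (red, replicate 4 as a triangle) and the 4 Sham libraries (blue), with bars for the mean ± SD. P2ry12, Siglech, Tmem119, Cst3 and Egr1 sit lower in MCAO+AS-exos libraries and the other 7 genes sit higher, with no overlap between the groups in any panel.

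Disease-associated microglia genes, a set turned on in microglia near damage and plaques, rose in 19 of 27 tested members and fell in 4 (median 2.07); 2 fell with replicates 1 to 3 averaged. Osteopontin, Spp1, a secreted matrix and cytokine-like protein, was at 6439, 7656, 8708 and 3542 FPKM in MCAO+AS-exos libraries and at 5.73, 3.35, 5.69 and 11.1 FPKM in Sham libraries. Replicate 4 was the lowest of its group and still far above the highest Sham library (9.81 ± 0.37, adjusted p = 3.33e-14). Gpnmb, a transmembrane glycoprotein of lipid-laden phagocytes, was at 337, 469, 425 and 397 FPKM in MCAO+AS-exos libraries, against 0.32, 0.17, 0.24 and 0.81 FPKM in Sham libraries. The MCAO+AS-exos values were tightly grouped and every Sham library was below 1 FPKM (8.21 ± 0.22, adjusted p = 6.27e-16). Lgals3, galectin-3, a carbohydrate-binding protein of activated phagocytes, had 2367, 2801, 2184 and 1931 FPKM in MCAO+AS-exos libraries and 1.07, 0.84, 1.18 and 3.22 FPKM in Sham libraries (9.89 ± 0.24, adjusted p = 1.91e-16). The inhibitory receptor Lilrb4a rose likewise (8.90 ± 0.29, adjusted p = 6.16e-15). All of these were higher in every MCAO+AS-exos library, as were Wfdc17 (9.50 ± 0.39), the membrane protein Ifitm1 (9.47 ± 0.33) and the calcium-binding S100a6 (9.20 ± 0.26), the remaining genes named for the size of their rise.

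The 4 members of that list that fell were Trem2, Tyrobp, Cd9 and Timp2. Trem2, the lipid-sensing receptor through which the program is induced, was at 783, 757, 621 and 579.9 FPKM in MCAO+AS-exos libraries and at 898, 1520.3, 1035 and 1693 FPKM in Sham libraries. The groups did not overlap, and the difference was small (-0.87 ± 0.22, adjusted p = 0.00444). Its signalling adaptor Tyrobp was at 6866, 6891, 5629 and 5756 FPKM in MCAO+AS-exos libraries, against 11519, 11474, 8692 and 7654 FPKM in Sham libraries, also without overlap (-0.63 ± 0.23, adjusted p = 0.0327). The Tyrobp call was lost without MCAO+AS-exos replicate 3 or 4 or Sham replicate 1 or 2, at adjusted p of 0.0645 to 0.0909.

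Genes for the uptake, export and storage of lipid rose in 23 of 29 tested members, and 0 fell (median 3.06). Apolipoprotein E, Apoe, the main lipid carrier made by brain phagocytes, was at 23411, 25267, 21042 and 12582 FPKM in MCAO+AS-exos libraries and at 81.8, 119, 112 and 204 FPKM in Sham libraries. It was among the most abundant transcripts of all 4 MCAO+AS-exos libraries, lowest in replicate 4, and low in every Sham library (7.34 ± 0.25, adjusted p = 1.26e-14). Apoc2, the cofactor of lipoprotein lipase, had 1664, 1619.8, 1394 and 1452 FPKM in MCAO+AS-exos libraries and 1.2, 1.27, 1.25 and 4.98 FPKM in Sham libraries (9.06 ± 0.31, adjusted p = 1.26e-14). Neither gene overlapped between the groups.

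The fatty acid-binding protein Fabp5 was at 4031, 3321, 2118 and 2789.6 FPKM in MCAO+AS-exos libraries and at 2.05, 1.56, 2.41 and 4.46 FPKM in Sham libraries, with replicate 3 the lowest of its group (9.75 ± 0.26, adjusted p = 6.27e-16). Plin2, which coats lipid droplets, stood at 1887, 1956, 1931 and 1245 FPKM in MCAO+AS-exos libraries, against 8.56, 10.2, 6.22 and 4.36 FPKM in Sham libraries (7.75 ± 0.24, adjusted p = 3.13e-15). The scavenger receptors Msr1 (7.02 ± 0.27) and Cd36 (5.53 ± 0.41) take up modified lipoproteins. Both rose, Cd36 with 62, 56.5, 48.3 and 27.4 FPKM in MCAO+AS-exos libraries and 0.05, 0.05, 0.02 and 0 FPKM in Sham libraries. The cholesterol exporter gene Abca1 had a log2 fold change of -0.37 (adjusted p = 0.386), while its relative Abcg1 rose by 1.14 (adjusted p = 0.00297).

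Markers of other myeloid cells moved with these changes. In bulk samples a change in the number of cells of a type and a change in RNA per cell cannot be told apart. All 18 of 18 tested infiltrating monocyte markers rose (median 5.45), and their FPKM summed to 12691 to 29166 in MCAO+AS-exos libraries and 252 to 668 in Sham libraries. Lyz2, a member of that list, made up most of the sum in MCAO+AS-exos replicates 1 to 3. Of the neutrophil markers, 13 of 14 rose and 0 fell (median 5.54), with summed levels of 8183 to 12387 in MCAO+AS-exos libraries and 94.1 to 149 in Sham libraries. The neutrophil list includes S100a8, which monocytes also carry. Border macrophage markers rose in 13 of 15 and fell in 1 (median 4.93), and their sums were 16304 to 29475 in MCAO+AS-exos libraries and 292 to 420.1 in Sham libraries. Apoe, a member of the border macrophage list, made up most of that sum in each MCAO+AS-exos library, at 12582 to 25267 FPKM, and F13a1 is in that list and among the monocyte markers. Of the neutrophil list Ly6g, a defining surface protein, averaged 1.15 FPKM in MCAO+AS-exos libraries and was not tested, and 5 granule protein genes were not analysed here. In Sham libraries 9 of 18 monocyte, 11 of 15 neutrophil and 8 of 15 border macrophage markers averaged below 1 FPKM. Such members passed the filter mainly through the stroke libraries, so a fall could hardly be called for them. The shares of all tested genes were 20.7% higher and 19.1% lower. The part that these other myeloid cells have in the other results was not tested.

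Ccr2, the chemokine receptor that brings monocytes out of the bone marrow, was at 141, 118, 199 and 273 FPKM in MCAO+AS-exos libraries and at 6.53, 4.71, 2.08 and 0.65 FPKM in Sham libraries (5.50 ± 0.39, adjusted p = 1.07e-09). F13a1, a transglutaminase chain of monocytes and border macrophages, was at 155, 153, 234 and 163 FPKM in MCAO+AS-exos libraries, against 0.05, 0.09, 0.36 and 0.2 FPKM in Sham libraries (7.22 ± 0.25, adjusted p = 1.39e-14). Both were high in every MCAO+AS-exos library and low in every Sham library. Lyz2, lysozyme, stood at 20052, 17235, 18466 and 4693 FPKM in MCAO+AS-exos libraries and at 206, 327, 498 and 340.4 FPKM in Sham libraries (5.33 ± 0.38, adjusted p = 1.24e-09). Replicate 4 was well below the other 3, and reads of Lyz2 and its near-identical neighbour Lyz1 may have been divided between them by the authors' counting.

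S100a8, a calcium-binding subunit of calprotectin carried by neutrophils and monocytes, was at 4952, 4459, 5195 and 2471 FPKM in MCAO+AS-exos libraries and at 2.79, 0.83, 1.86 and 3.91 FPKM in Sham libraries. It had the largest rise of the named genes, with every MCAO+AS-exos library far above every Sham library (10.35 ± 0.43, adjusted p = 1.58e-13). Its partner S100a9 rose by 9.43 ± 0.49 (adjusted p = 7.13e-12). Lcn2, lipocalin-2, which binds iron-carrying siderophores, was at 109.5, 209, 319 and 43.6 FPKM in MCAO+AS-exos libraries and at 0.17, 0, 0 and 0.23 FPKM in Sham libraries, with replicate 4 the lowest of its group (6.95 ± 0.77, adjusted p = 5.57e-07). The granulocyte receptor gene Csf3r, the neutrophil marker that did not rise, had a log2 fold change of -0.54 (adjusted p = 0.182). For the macrophage mannose receptor Mrc1, MCAO+AS-exos libraries held 77, 45.2, 57.5 and 88.9 FPKM, against 4.67, 1.12, 3.55 and 3.04 FPKM in Sham libraries (4.10 ± 0.35, adjusted p = 1.40e-08). Neither Lcn2 nor Mrc1 overlapped between the groups. Ms4a7, a membrane protein of macrophages outside the parenchyma, was at 819.5, 462, 417 and 663 FPKM in MCAO+AS-exos libraries and below 1 FPKM in every Sham library (8.61 ± 0.26, adjusted p = 2.79e-15).

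Markers of cells outside the myeloid gate were low where they were measured, and only 7 of the 13 neuron markers, 4 of the 16 T and NK cell markers and 9 of the 11 astrocyte markers were analysed here. Neuron markers summed to 0.29 to 0.57 FPKM in MCAO+AS-exos libraries and 0.16 to 4.51 FPKM in Sham libraries, and none passed the filter for testing. T and NK cell markers summed to 2.49 to 68.2 FPKM in MCAO+AS-exos libraries, highest in replicate 4 through the chemokine gene Ccl5, and to 0 to 8.64 FPKM in Sham libraries. The astrocyte list had a lower summed level, with 7.32 to 16.1 FPKM in MCAO+AS-exos libraries and 58.2 to 107 FPKM in Sham libraries. That difference came from the glutamate transporter Slc1a3, at 0.3, 0.21, 0.59 and 1.28 FPKM in MCAO+AS-exos libraries and 62.5, 56.9, 107 and 78 FPKM in Sham libraries (-5.60 ± 0.35, adjusted p = 1.13e-10), while the gap junction gene Gja1 was at 10.4, 4.05, 12.2 and 2.11 FPKM in MCAO+AS-exos libraries and at 0.02, 0, 0 and 0 FPKM in Sham libraries, and rose. By their defining markers the Sham libraries match the label microglia: P2ry12, Cx3cr1 and Siglech were each at 845 FPKM or above. In the MCAO+AS-exos libraries Sall1 was below 1 FPKM, Siglech was at 0.74 to 7.38 FPKM and monocyte markers were high.

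MHC class II genes, which load and display peptides to CD4 T cells, rose in 8 of 12 tested members, and 0 fell, or 1 without MCAO+AS-exos replicate 1 and 2 without Sham replicate 4 (median 2.15). With trends in length and GC content removed, 7 rose and 3 fell, and after quantile normalization 7 rose and 1 fell. The promoters of classical class II genes carry a Y box, bound by the factor NF-Y beside the complex that recruits the coactivator Ciita. The 300-base windows around the annotated start sites were read for members of the list, and those with the letters CTGATTGG on either strand are shown to set the presence of the box beside the size of the change. The windows are from RefSeq on GRCm38.p6, in the direction of transcription, and the match is in capitals. Lines give H2-Aa (chr17:34287774-34288073, minus strand), H2-Eb1 (chr17:34305617-34305916, plus strand) and H2-Oa (chr17:34092129-34092428, plus strand).
H2-Aa: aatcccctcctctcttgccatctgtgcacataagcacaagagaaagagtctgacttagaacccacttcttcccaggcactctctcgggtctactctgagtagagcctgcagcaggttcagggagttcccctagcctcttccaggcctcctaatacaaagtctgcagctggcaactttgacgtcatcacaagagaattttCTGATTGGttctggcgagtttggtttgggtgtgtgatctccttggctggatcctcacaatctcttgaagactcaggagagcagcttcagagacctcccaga
H2-Eb1: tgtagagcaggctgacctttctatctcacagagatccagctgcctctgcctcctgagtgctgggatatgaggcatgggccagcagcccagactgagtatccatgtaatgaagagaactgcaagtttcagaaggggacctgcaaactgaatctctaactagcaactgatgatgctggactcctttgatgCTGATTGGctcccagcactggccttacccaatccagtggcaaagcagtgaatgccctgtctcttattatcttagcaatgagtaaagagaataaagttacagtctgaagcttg
H2-Oa: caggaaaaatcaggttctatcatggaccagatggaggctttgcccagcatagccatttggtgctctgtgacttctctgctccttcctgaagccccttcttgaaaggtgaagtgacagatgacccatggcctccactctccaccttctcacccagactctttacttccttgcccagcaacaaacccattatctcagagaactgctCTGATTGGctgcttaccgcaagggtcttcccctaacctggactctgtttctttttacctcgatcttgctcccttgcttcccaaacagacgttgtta

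These letters occurred in 3 of the 9 members with a window, and in 1346 of 32851 windows of all genes (4.10%). The first count is of genes with a match in any window and the second is of windows, so the shares are not directly comparable. The matches are descriptions of sequence and not of binding. H2-Aa, the alpha chain of I-A, was at 1807, 3440.3, 2519 and 3175 FPKM in MCAO+AS-exos libraries and at 1.3, 1, 1.65 and 3.69 FPKM in Sham libraries (9.92 ± 0.30, adjusted p = 2.47e-15). H2-Eb1, the beta chain of I-E, was at 972, 1918, 1331 and 1662 FPKM in MCAO+AS-exos libraries, against 4.01, 1.06, 0.56 and 1.66 FPKM in Sham libraries (9.12 ± 0.34, adjusted p = 3.33e-14). The last window belongs to H2-Oa, a chain of the peptide-loading inhibitor H2-O, which had a log2 fold change of -0.06 (adjusted p = 0.953). The 3 genes that share these letters thus differed widely in their change. H2-Ab1 (8.13 ± 0.36) and the invariant chain Cd74 (7.33 ± 0.40) rose with H2-Aa, and Ciita itself rose by 2.13 (adjusted p = 0.000124). Cd74 was at 2939, 4072, 3157 and 2302 FPKM in MCAO+AS-exos libraries and at 18.1, 36.4, 7.22 and 21.3 FPKM in Sham libraries.

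Of the MHC class I presentation genes, 3 of 16 rose and 2 fell, beside 20.7% and 19.1% of all tested genes. The number that rose was 1 without Sham replicate 1, and 5 without Sham replicate 3 or 4. The class I heavy chain H2-D1 was at 1066, 1289.7, 1291 and 1083 FPKM in MCAO+AS-exos libraries and at 341, 361, 415 and 381 FPKM in Sham libraries (1.66 ± 0.19, adjusted p = 7.04e-07). Its light chain B2m was at 9255, 5689, 5872 and 5873 FPKM in MCAO+AS-exos libraries, against 15407, 14407, 17416 and 7523 FPKM in Sham libraries (-1.0 ± 0.25, adjusted p = 0.00396). The groups overlapped for B2m, through MCAO+AS-exos replicate 1 and Sham replicate 4, and were apart for H2-D1.

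Complement genes changed in both directions. The C1q chains C1qa (-0.81), C1qb (-0.75 ± 0.23) and C1qc (-1.15), which start the classical pathway, fell, with adjusted p values of 0.0431, 0.0154 and 0.00741. C1qa did not pass without any 1 of 6 libraries (adjusted p of 0.0564 to 0.146), nor C1qb without MCAO+AS-exos replicate 4 (0.0557) or Sham replicate 2 (0.0535). Properdin, Cfp, which stabilises the alternative convertase, was at 298, 347, 263 and 262 FPKM in MCAO+AS-exos libraries and below 1 FPKM in every Sham library (7.84 ± 0.26, adjusted p = 5.64e-15). The central component C3 (2.78), factor B, Cfb (3.48), and the anaphylatoxin receptors C5ar1 (3.41 ± 0.39) and C3ar1 (1.03) rose. In the list as a whole 6 of 14 rose, the integrin chain gene Itgax among them, and 4 fell, or 2 without Sham replicate 2. These counts stand beside 20.7% higher and 19.1% lower of all tested genes.

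Pro-inflammatory mediators split in both directions, with 9 of 27 higher and 12 lower (median -0.89), beside 20.7% and 19.1% of all tested genes. Il1b, interleukin-1 beta, was at 886, 1188, 1521 and 563 FPKM in MCAO+AS-exos libraries and at 0.5, 1.32, 1.72 and 15.4 FPKM in Sham libraries. All 4 MCAO+AS-exos libraries were above 500 FPKM, and Sham replicate 4 was the highest of the Sham libraries (8.11 ± 0.52, adjusted p = 2.11e-10). Il1a, which acts on the same receptor, went the other way, at 7.24, 8.8, 33.7 and 13.6 FPKM in MCAO+AS-exos libraries and 588, 486, 744 and 350.0 FPKM in Sham libraries (-5.20 ± 0.56, adjusted p = 4.40e-07). Il1b was thus the higher of the pair in MCAO+AS-exos libraries and Il1a in Sham libraries, without overlap between the groups for either gene.

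Interleukin-6, Il6, was listed at 0 in all 4 MCAO+AS-exos libraries and at 32.7, 26.2, 39.6 and 7.49 FPKM in the Sham libraries. Tnf was at 26.6, 38.6, 69.8 and 17.9 FPKM in MCAO+AS-exos libraries and at 24.9, 61.5, 40.5 and 58.6 FPKM in Sham libraries, and did not pass (-0.37 ± 0.45, adjusted p = 0.548). Its values overlapped between the groups, whereas Il6 was above 0 in Sham libraries only. The neutrophil chemokine Cxcl2 was at 604, 381, 512 and 339 FPKM in MCAO+AS-exos libraries, against 3.89, 0.33, 0.27 and 0.91 FPKM in Sham libraries (7.81 ± 0.35, adjusted p = 5.33e-13). Ccl2, the ligand of Ccr2, was at 1072, 1045, 1207 and 851 FPKM in MCAO+AS-exos libraries and at 196, 128, 218 and 115 FPKM in Sham libraries (2.70 ± 0.25, adjusted p = 4.58e-08). Both chemokines were higher in every MCAO+AS-exos library. The chemokine genes Ccl3 (-2.71) and Ccl4 (-3.71) fell. The costimulatory receptor Cd86 was at 20.6, 29.6, 35.6 and 7.64 FPKM in MCAO+AS-exos libraries and at 223, 215, 212 and 142 FPKM in Sham libraries, lowest in replicate 4 (-3.20 ± 0.39, adjusted p = 2.40e-06), while Cd40 rose (3.85, adjusted p = 2.02e-06). The interferon-induced chemokine gene Cxcl10, at 4.07, 72.3, 35.4 and 6.44 FPKM in MCAO+AS-exos libraries and 32.1, 66.1, 252 and 26.4 FPKM in Sham libraries, overlapped between the groups (-1.81 ± 1.02, adjusted p = 0.169).

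Genes of alternative activation, the macrophage state tied to repair, rose in 14 of 20 tested members and fell in 1 (median 2.38). Arginase 1, Arg1, which turns arginine into ornithine, was at 1947, 2684, 3163 and 934 FPKM in MCAO+AS-exos libraries and at 0.81, 0.63, 1.21 and 1.82 FPKM in Sham libraries (9.90 ± 0.34, adjusted p = 1.25e-14). Chil3, a chitinase-like protein of monocytes and macrophages, was at 2948, 3393, 4235 and 652 FPKM in MCAO+AS-exos libraries, against 1.72, 0.85, 1.3 and 2.38 FPKM in Sham libraries (9.84 ± 0.41, adjusted p = 1.43e-13). In both, replicate 4 was the lowest MCAO+AS-exos library and lay far above all Sham libraries. Klf4, a transcription factor, was the member that fell (-3.19, adjusted p = 6.82e-07); 2 fell after quantile normalization, and 2 with trends in length and GC content removed. Matrix and wound repair genes rose in 24 of 30 and fell in 4, or in 1 with replicates 1 to 3 averaged (median 5.88), including fibronectin, Fn1, at 90.7, 108, 108 and 172 FPKM in MCAO+AS-exos libraries and 0.1, 0.06, 0.08 and 0.15 FPKM in Sham libraries (6.74 ± 0.25, adjusted p = 3.35e-14). The matrix glycoprotein gene Thbs1 rose by 7.27 ± 0.24, Ecm1 by 8.67 ± 0.25 and the annexin Anxa2 by 8.58 ± 0.25. Chemokine receptor genes rose in 7 of 11, with Ccr1 at 296, 298, 374 and 192 FPKM in MCAO+AS-exos libraries and 10.5, 8.67, 0.24 and 1.55 FPKM in Sham libraries (6.03 ± 0.50) and Cxcr4 rising by 5.03 ± 0.31. Cx3cr1 was among the 2 that fell, or 1 with trends in length and GC content removed.

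**Figure D4:**
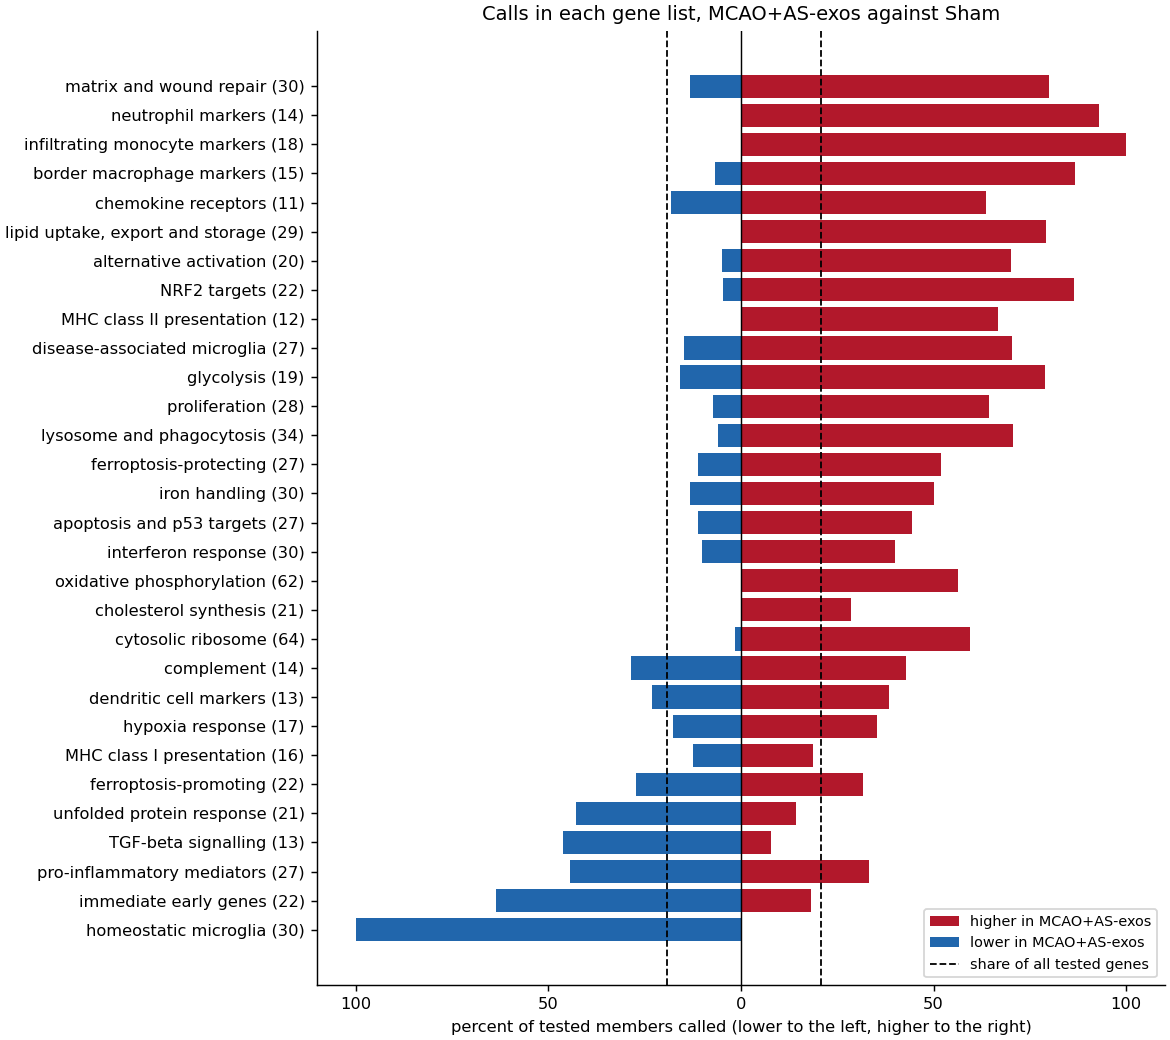
Share of the tested members of each list (number in brackets) called higher in MCAO+AS-exos (right, red) or lower (left, blue) than in Sham, with dashed lines at the shares over all tested genes, 20.7% higher and 19.1% lower. Lists are ordered by median log2 fold change, from 5.88 for matrix and wound repair to -3.77 for homeostatic microglia; lists with fewer than 10 tested members are left out.

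Ferroptosis genes were divided by their known action. Among protecting genes 14 of 27 rose and 3 fell, or 1 with replicates 1 to 3 averaged (median 1.29). Among promoting genes 7 of 22 rose and 6 fell (median 0.37). Of all tested genes, 20.7% rose and 19.1% fell. Gpx4, which reduces lipid peroxides in membranes, was at 971, 1028, 788 and 768 FPKM in MCAO+AS-exos libraries and at 269, 439, 282 and 359 FPKM in Sham libraries (1.41 ± 0.22, adjusted p = 4.27e-05). The cystine importer subunit Slc7a11, which feeds glutathione synthesis, was at 2.09, 2.58, 3.26 and 1.54 FPKM in MCAO+AS-exos libraries, against 0.03, 0.54, 0.11 and 0.12 FPKM in Sham libraries (1.48 ± 0.45, adjusted p = 0.0128). Both were higher in every MCAO+AS-exos library, Slc7a11 at low levels throughout and with an adjusted p of 0.105 once replicates 1 to 3 were averaged. Aifm2, the coenzyme Q reductase FSP1 that acts beside Gpx4, was at 10.2, 7.13, 8.88 and 10.5 FPKM in MCAO+AS-exos libraries and at 0, 0, 0 and 0.04 FPKM in Sham libraries (3.32 ± 0.42, adjusted p = 3.15e-06).

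On the promoting side, Acsl4, which loads membranes with oxidizable fatty acids, was at 8.25, 7.05, 8.37 and 11.6 FPKM in MCAO+AS-exos libraries and at 39.9, 32.1, 38 and 15.6 FPKM in Sham libraries, with Sham replicate 4 the lowest of its group and no overlap (-1.66 ± 0.35, adjusted p = 0.000827). Ncoa4, the receptor that delivers ferritin to autophagy, was at 31.8, 25.2, 39.1 and 33.2 FPKM in MCAO+AS-exos libraries, against 112, 71.1, 72.4 and 62.2 FPKM in Sham libraries (-1.25 ± 0.27, adjusted p = 0.000999). The NADPH oxidase subunit Cybb, a source of superoxide in phagocytes, was at 48.9, 44.1, 54.9 and 74.3 FPKM in MCAO+AS-exos libraries and at 1.18, 0.35, 0.58 and 0.09 FPKM in Sham libraries (5.21 ± 0.27, adjusted p = 7.04e-12). Among the promoting genes Acsl4 and Ncoa4 were lower, then, and Cybb was higher in all libraries. Por, an oxidoreductase that can drive lipid peroxidation, rose by 3.62 ± 0.35, and the prostaglandin synthase Ptgs2 by 2.41 ± 0.42. The lipoxygenase gene Alox5 did not pass (0.29 ± 0.60, adjusted p = 0.729), while its activating protein Alox5ap rose (1.33 ± 0.16, adjusted p = 1.80e-06). Alox15 was below 1 FPKM in every MCAO+AS-exos and Sham library and was not tested.

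Iron-handling genes rose in 15 of 30 and fell in 4 (median 1.06), beside 20.7% and 19.1% of all tested genes. In MCAO+AS-exos libraries they summed to 30715 to 60005 FPKM, close to the 30313 to 58619 FPKM of the ferroptosis-protecting list. Lists can share members, so the counts of these lists are not separate results. Fth1, the ferritin heavy chain that oxidizes and stores iron, was at 22659.9, 20676, 19974 and 14979.6 FPKM in MCAO+AS-exos libraries and at 3327, 4512, 4004 and 3603 FPKM in Sham libraries (2.33 ± 0.17, adjusted p = 1.04e-09). The light chain Ftl1 was at 33850.0, 31957, 25979 and 13324 FPKM in MCAO+AS-exos libraries, against 2974, 5398, 3730.0 and 5819 FPKM in Sham libraries (2.52 ± 0.25, adjusted p = 1.41e-07). Ftl1 was the most abundant transcript in MCAO+AS-exos replicates 1 to 3 and lower in replicate 4; it has near-identical copies in the mouse genome, so its level is uncertain. Hmox1, which frees iron from heme, was at 1599, 1943, 1615 and 647 FPKM in MCAO+AS-exos libraries and at 10.2, 35.8, 2.7 and 24.7 FPKM in Sham libraries (6.58 ± 0.59, adjusted p = 3.27e-08). Ferroportin, Slc40a1, the exporter of iron, was at 8.42, 10.2, 7.43 and 2.96 FPKM in MCAO+AS-exos libraries and at 127, 39, 104 and 51 FPKM in Sham libraries (-3.24 ± 0.68, adjusted p = 0.00091). The storage chains and the heme enzyme were thus higher and the exporter lower in every MCAO+AS-exos library. The transferrin receptor gene Tfrc, at 5.94, 2.48, 2.97 and 5.48 FPKM in MCAO+AS-exos libraries and 6.38, 7.05, 4.48 and 0.09 FPKM in Sham libraries, was not called (0.20 ± 0.54, adjusted p = 0.801), and its difference was -0.46 without Sham replicate 4.

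NRF2 target genes rose in 19 of 22 tested members and fell in 1 (median 2.22). The member that fell, Gclc, did not pass without any 1 of 5 libraries (adjusted p of 0.0542 to 0.111) or with replicates 1 to 3 averaged. NRF2 binds antioxidant response elements, whose core is written TGACNNNGC, and windows of the list members that hold this core on either strand are shown for 3 genes with rises of different size. They are again from RefSeq on GRCm38.p6, in the direction of transcription, with the match in capitals. Lines give Mgst1 (chr6:138140277-138140576, plus strand), Txnrd1 (chr10:82858956-82859255, plus strand) and Prdx1 (chr4:116685349-116685648, plus strand).
Mgst1: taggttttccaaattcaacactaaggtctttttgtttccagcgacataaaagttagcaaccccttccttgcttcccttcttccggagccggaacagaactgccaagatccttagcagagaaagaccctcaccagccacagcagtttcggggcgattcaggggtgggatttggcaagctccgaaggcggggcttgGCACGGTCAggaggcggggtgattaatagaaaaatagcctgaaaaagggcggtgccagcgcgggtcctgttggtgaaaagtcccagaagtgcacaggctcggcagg
Txnrd1: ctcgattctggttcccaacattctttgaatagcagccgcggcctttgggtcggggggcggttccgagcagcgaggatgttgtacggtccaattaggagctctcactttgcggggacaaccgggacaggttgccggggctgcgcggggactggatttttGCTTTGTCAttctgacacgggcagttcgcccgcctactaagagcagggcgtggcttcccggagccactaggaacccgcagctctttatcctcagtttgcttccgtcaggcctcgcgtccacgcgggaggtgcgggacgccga
Prdx1: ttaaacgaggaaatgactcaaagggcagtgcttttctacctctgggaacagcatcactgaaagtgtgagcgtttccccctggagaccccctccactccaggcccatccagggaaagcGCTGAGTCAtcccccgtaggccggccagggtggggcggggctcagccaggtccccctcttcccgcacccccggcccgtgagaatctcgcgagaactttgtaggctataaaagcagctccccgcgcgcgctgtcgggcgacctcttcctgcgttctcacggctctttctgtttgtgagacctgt

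The core was found in 7 of the 18 members with a window and in 4071 of 32851 windows of all genes (12.4%). Here too the first count is of genes and the second of windows, so the shares are not directly comparable. The core does not overlap the Y box letters. The 7 genes were G6pdx, Gclm, Mgst1, Pgd, Prdx1, Srxn1 and Txnrd1, and each rose. Mgst1, a membrane glutathione transferase, was at 305, 226, 215 and 121 FPKM in MCAO+AS-exos libraries and at 0.08, 0.17, 0 and 0.46 FPKM in Sham libraries (7.47 ± 0.34, adjusted p = 6.87e-13). Txnrd1, thioredoxin reductase, was at 31.7, 32.1, 32.2 and 56.9 FPKM in MCAO+AS-exos libraries, against 2.26, 3.82, 1.25 and 8.96 FPKM in Sham libraries, with replicate 4 the highest of its group (3.13 ± 0.38, adjusted p = 1.95e-06). The peroxide-removing Prdx1 rose by 2.09 (adjusted p = 1.67e-06), thioredoxin Txn1 by 3.22 ± 0.21 and glutathione reductase Gsr by 3.73 ± 0.34. Nqo1, often used as a readout of NRF2, was listed at 0 in all Sham libraries and at 1.52, 1.22, 0.44 and 0.06 FPKM in MCAO+AS-exos libraries (adjusted p = 0.121), and was not called.

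Glycolysis genes rose in 15 of 19 and fell in 3 (median 1.72), beside 20.7% and 19.1% of all tested genes. Pyruvate kinase, Pkm, was at 398, 586, 569.9 and 746 FPKM in MCAO+AS-exos libraries and at 33.6, 48.8, 15.9 and 44.6 FPKM in Sham libraries (4.05 ± 0.31, adjusted p = 2.98e-09). Pgam1, a mutase in the middle of the pathway, was at 536, 675, 649.9 and 543 FPKM in MCAO+AS-exos libraries, against 75.4, 117, 75.6 and 62.3 FPKM in Sham libraries (2.88 ± 0.21, adjusted p = 1.50e-09). The members that fell were the hexokinase Hk2 (-2.67) and the regulators Pfkfb3 (-0.87) and Pdk1 (-1.98 ± 0.39). Pfkfb3 did not pass without any 1 of 6 libraries, at adjusted p of 0.0652 to 0.110. Of the nuclear-encoded subunits of oxidative phosphorylation, 35 of 62 rose and 0 fell, with a small median of 0.76; mitochondrially encoded genes were not analysed here. Atp5b, a catalytic chain of ATP synthase, was at 445, 525, 569 and 258 FPKM in MCAO+AS-exos libraries and at 69.3, 172, 97.9 and 101 FPKM in Sham libraries (2.04 ± 0.28, adjusted p = 8.78e-06). After quantile normalization 24 of these subunits rose and 3 fell, and 22 rose and 0 fell once each library was corrected for trends with transcript length and GC content. The shares of all tested genes were 18.6% higher and 22.0% lower after quantile normalization, and 19.5% and 17.0% with that correction.

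Cytosolic ribosomal protein genes rose in 38 of 64 and fell in 1 (median 0.69), beside 20.7% and 19.1% of all tested genes. Examples were Rps2, which rose by 2.55 ± 0.22, and Rplp0, which rose by 1.85 ± 0.21. Rps27 was the member that fell (-0.78 ± 0.25, adjusted p = 0.018), with overlapping groups, and did not pass without MCAO+AS-exos replicate 3 (0.0558) or Sham replicate 1 (0.0678), or with replicates 1 to 3 averaged. The counts depended on scaling, at 17 higher and 8 lower after quantile normalization, and 20 higher and 6 lower with trends in length and GC content removed. Of all tested genes, 18.6% rose and 22.0% fell after quantile normalization, and 19.5% rose and 17.0% fell with these trends removed. Ribosomal protein genes have many processed copies in the genome, so their levels are uncertain. Lysosome and phagocytosis genes rose in 24 of 34 and fell in 2 (median 1.36), beside 20.7% and 19.1% of all tested genes. Cathepsin B, Ctsb, was at 11887, 10874, 10943 and 10282 FPKM in MCAO+AS-exos libraries and at 908, 1422, 1180.0 and 1261 FPKM in Sham libraries (3.22 ± 0.17, adjusted p = 1.04e-11). Cathepsin S, Ctss, was abundant in both groups and did not pass (-0.42 ± 0.17, adjusted p = 0.0561), although it did after quantile normalization (-0.82, adjusted p = 0.000138), without MCAO+AS-exos replicate 1 (0.0489) and without Sham replicate 4 (0.0262). The efferocytosis receptor gene Mertk (-2.95) was among those that fell, which were 4 after quantile normalization. Proliferation genes rose in 18 of 28 and fell in 2 (median 1.63), among them the replication helicase subunit Mcm6 (3.03 ± 0.42); 10 rose without MCAO+AS-exos replicate 2, 1 fell without replicate 4, and 5 rose and 1 fell with replicates 1 to 3 averaged.

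Immediate early genes, which respond within minutes to stimulation and to cell handling, fell in 14 of 22 tested members and rose in 4 (median -1.62). Of all tested genes, 19.1% fell and 20.7% rose. Egr1, a zinc-finger transcription factor, was at 48.6, 47.6, 64 and 56.8 FPKM in MCAO+AS-exos libraries and at 1069, 1462, 1453 and 1362 FPKM in Sham libraries (-4.60 ± 0.22, adjusted p = 1.61e-12). Jun, a component of AP-1, was at 16, 12.3, 11.8 and 61.6 FPKM in MCAO+AS-exos libraries, against 335, 499, 453 and 461 FPKM in Sham libraries (-4.39 ± 0.41, adjusted p = 5.28e-08). Klf2, a transcription factor that restrains myeloid activation, was at 20.4, 19.2, 21.2 and 65.7 FPKM in MCAO+AS-exos libraries and at 399, 591, 487 and 607 FPKM in Sham libraries (-4.19 ± 0.40, adjusted p = 6.94e-08). For Jun and Klf2 replicate 4 was above the other 3 libraries and still below all Sham libraries, whereas for Egr1 the 4 libraries were alike. Atf3, a stress-induced factor, fell (-1.72 ± 0.18, adjusted p = 2.78e-07), as did the antiproliferative gene Btg2 (-2.69 ± 0.26). The members that rose were Fosl2 (3.05) and the nuclear receptors Nr4a1 (4.14), Nr4a2 (3.16) and Nr4a3 (1.31). Nr4a3 did not pass without MCAO+AS-exos replicate 4 or Sham replicate 1, 3 or 4 (adjusted p of 0.0546 to 0.106).

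The other stroke groups were set beside these values. MCAO against Sham gave 4254 calls (39.2%; 2654 higher, 24.5%, and 1600 lower, 14.8%), and MCAO+Ctrl-exos against Sham gave 4194 (38.7%; 2392 higher, 22.1%, and 1802 lower, 16.6%). These comparisons share the Sham libraries with MCAO+AS-exos against Sham, so only the values are set side by side. P2ry12 averaged 61.2 ± 24 FPKM in MCAO+AS-exos, 28.6 ± 13.3 in MCAO+Ctrl-exos, 47.7 ± 4.01 in MCAO and 4214 ± 918 in Sham libraries (SD, n = 4 each). Spp1 averaged 6586 ± 2231 FPKM in MCAO+AS-exos, 7266 ± 1319.9 in MCAO+Ctrl-exos, 8002 ± 4752 in MCAO and 6.47 ± 3.3 in Sham libraries. H2-Aa averaged 2735 ± 730.1 FPKM in MCAO+AS-exos, 1512 ± 247 in MCAO+Ctrl-exos, 1852 ± 837 in MCAO and 1.91 ± 1.22 in Sham libraries. Homeostatic genes fell in 30 of 30 tested members in each of the 3 stroke groups, and infiltrating monocyte markers rose in 18 of 18. Both lists were chosen with earlier results of these data known, and 9 of the 18 monocyte markers averaged below 1 FPKM in Sham libraries. Tested directly, MCAO+AS-exos against MCAO gave a log2 difference of 0.28 ± 0.31 for P2ry12 (adjusted p = 0.621), -0.17 ± 0.37 for Spp1 (0.817) and 0.62 ± 0.30 for H2-Aa (0.202).

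Direct tests between the stroke groups gave far fewer calls. MCAO+AS-exos against MCAO had 115 genes higher (1.06%) and 551 lower (5.08%), 666 in all (6.14%), and MCAO+AS-exos against MCAO+Ctrl-exos had 17 higher (0.157%) and 14 lower (0.129%), 31 in all (0.286%). Groups did not overlap for 1561 genes (14.4%) against MCAO and for 1107 (10.2%) against MCAO+Ctrl-exos. Both counts depended on single libraries. Against MCAO there were 2 calls without MCAO+AS-exos replicate 1, 0 without replicate 2, 0 without replicate 3, 2024 without replicate 4 and 0 with replicates 1 to 3 averaged. At an unadjusted p below 0.05, limma gave 2785 genes with all libraries, 1918 without replicate 2, 1933 without replicate 3 and 856 with replicates 1 to 3 averaged. Leaving out MCAO replicates 1 to 4 in turn gave 37, 133, 109 and 75 calls. Against MCAO+Ctrl-exos the counts were 3, 1 and 1 without MCAO+AS-exos replicates 1, 2 and 3, 1297 without replicate 4, and 80, 3, 15 and 9 without MCAO+Ctrl-exos replicates 1 to 4.

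The genes named for the largest falls against MCAO were low in replicates 1 to 3 and close to MCAO in replicate 4. Cebpb, a transcription factor of myeloid inflammation, was at 10.7, 14.2, 5.03 and 157 FPKM in MCAO+AS-exos libraries, 198, 82.8, 84.9 and 170.1 FPKM in MCAO+Ctrl-exos, 160.3, 209, 206 and 300.0 FPKM in MCAO and 6.6, 5.41, 24.4 and 15.2 FPKM in Sham libraries. Replicates 1 to 3 lay in or below the Sham range and replicate 4 in the range of MCAO+Ctrl-exos, at a log2 difference of -3.40 ± 0.69 from MCAO (adjusted p = 0.0208). Chmp4b, an ESCRT subunit of membrane scission and repair, had 6.87, 8.2, 4.59 and 117 FPKM in MCAO+AS-exos libraries and 85.2, 102, 142 and 119 FPKM in MCAO libraries (-2.91 ± 0.62, adjusted p = 0.0218). Ccdc152 was at 3.59, 2.29, 2.54 and 838 FPKM in MCAO+AS-exos libraries, 863, 806, 622 and 1179 FPKM in MCAO+Ctrl-exos, 509, 345, 1251 and 1458 FPKM in MCAO and 40.0, 20, 64.9 and 36.8 FPKM in Sham libraries (-5.69 ± 1.16 from MCAO, adjusted p = 0.0208). Its locus overlaps Selenop, so reads of both genes cannot be told apart with certainty. The Hippo adaptor gene Sav1 (-2.39 ± 0.53) and the focal adhesion gene Tns3 (-2.43 ± 0.51) were likewise low in replicates 1 to 3 and higher in replicate 4.

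Jun was at 62.1, 89.5, 114 and 128 FPKM in MCAO libraries, above replicates 1 to 3 of MCAO+AS-exos (-2.22 ± 0.41, adjusted p = 0.0164), and Klf2 at 53.7, 39.8, 106 and 162 FPKM (-1.48 ± 0.40, adjusted p = 0.038). Immediate early genes were called lower than in MCAO in 6 of 22 tested members and higher in 0, beside 5.08% and 1.06% of all tested genes, in a comparison with 0 calls without MCAO+AS-exos replicate 2 or 3 or with replicates 1 to 3 averaged. Maf, a transcription factor of resident and border macrophages, was at 25.2, 18, 13.6 and 64.2 FPKM in MCAO+AS-exos libraries, 81.5, 94.7, 77.6 and 81 FPKM in MCAO+Ctrl-exos, 87.1, 70.7, 90.3 and 83.7 FPKM in MCAO and 200.2, 117, 150.1 and 150.4 FPKM in Sham libraries. It fell against Sham (-2.54 ± 0.34, adjusted p = 5.85e-06), against MCAO (-1.67 ± 0.34, adjusted p = 0.0202) and against MCAO+Ctrl-exos (-1.69 ± 0.34, adjusted p = 0.042). Nipbl, the cohesin loader, fell against Sham (-1.22 ± 0.34), MCAO (-1.53 ± 0.34) and MCAO+Ctrl-exos (-1.66 ± 0.34). For the longest 20% of transcripts, the median log2 level was taken relative to the mean over all stroke libraries. It was -0.44 to -0.52 in MCAO+AS-exos replicates 1 to 3, 0.12 in replicate 4 and 0.25 to 0.38 in MCAO libraries. In MCAO+Ctrl-exos libraries it was -0.093 to 0.345, and in Sham libraries -0.095 to 0.207. With trends in length and GC content removed, Nipbl did not pass against MCAO (-1.01, adjusted p = 0.0555) or against Sham (-0.40, adjusted p = 0.298). Against MCAO+Ctrl-exos Nipbl still passed with these trends removed. Maf, Jun and Klf2 passed against MCAO at -1.32, -2.16 and -1.46.

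Higher than in MCAO were Serhl, H2aw, Sdhaf3, Hagh, Timm21 and Tmem176b, and their MCAO+AS-exos libraries lay within the Sham range or below it. Hagh, glyoxalase II, which clears methylglyoxal adducts of glutathione, was at 80.6, 84.2, 63.9 and 12 FPKM in MCAO+AS-exos libraries, 19.4, 11.4, 1.82 and 12.2 FPKM in MCAO and 67.5, 99.5, 37 and 78.8 FPKM in Sham libraries, with replicate 4 at the MCAO level (2.32 ± 0.64, adjusted p = 0.0404). Tmem176b, a membrane protein of antigen-presenting cells, was at 151, 166, 178 and 73.1 FPKM in MCAO+AS-exos libraries, 36.5, 52, 16.3 and 40.0 FPKM in MCAO and 173, 495, 353 and 638 FPKM in Sham libraries (1.98 ± 0.40, adjusted p = 0.0208). All 4 MCAO+AS-exos libraries were above all MCAO libraries. Timm21, a subunit of mitochondrial import, followed the same order (2.12 ± 0.49, adjusted p = 0.0283).

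Against MCAO+Ctrl-exos, Cd33, a lectin of the sialic acid-binding family, was at 49.2, 70.6, 104 and 36.3 FPKM in MCAO+AS-exos libraries and at 6.65, 18.3, 8.2 and 12.5 FPKM in MCAO+Ctrl-exos libraries. The groups did not overlap (2.40 ± 0.38, adjusted p = 0.0221), and Sham libraries were at 74.1, 104, 55.7 and 107 FPKM. A relative, Siglece, was at 13.2, 18.3, 30.6 and 12.8 FPKM in MCAO+AS-exos libraries, against 3.1, 2.76, 3.99 and 4.73 FPKM in MCAO+Ctrl-exos libraries (2.02 ± 0.35, adjusted p = 0.0236). Cirbp, a cold-inducible RNA-binding protein, was at 70.6, 99.1, 111 and 52.5 FPKM in MCAO+AS-exos libraries and at 12.9, 27.4, 24.9 and 4.89 FPKM in MCAO+Ctrl-exos libraries (2.37 ± 0.43, adjusted p = 0.0285). All 3 genes were higher in every MCAO+AS-exos library. Lcn2 was at 16.8, 7.21, 0.25 and 35.3 FPKM in MCAO+Ctrl-exos libraries, which were widely spread (3.90 ± 0.77, adjusted p = 0.0392). The ubiquitin-conjugating enzyme gene Ube2s was lower, at 20.7, 25.1, 12.7 and 62.2 FPKM in MCAO+AS-exos libraries and 137, 128, 99.6 and 160.1 FPKM in MCAO+Ctrl-exos libraries (-2.30 ± 0.38, adjusted p = 0.0223), as were Hras (-2.25 ± 0.47) and Ptov1 (-1.90 ± 0.36). With replicates 1 to 3 averaged, none of the genes named as called in these direct comparisons passed, at adjusted p of 0.508 or above.

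**Figure D5:**
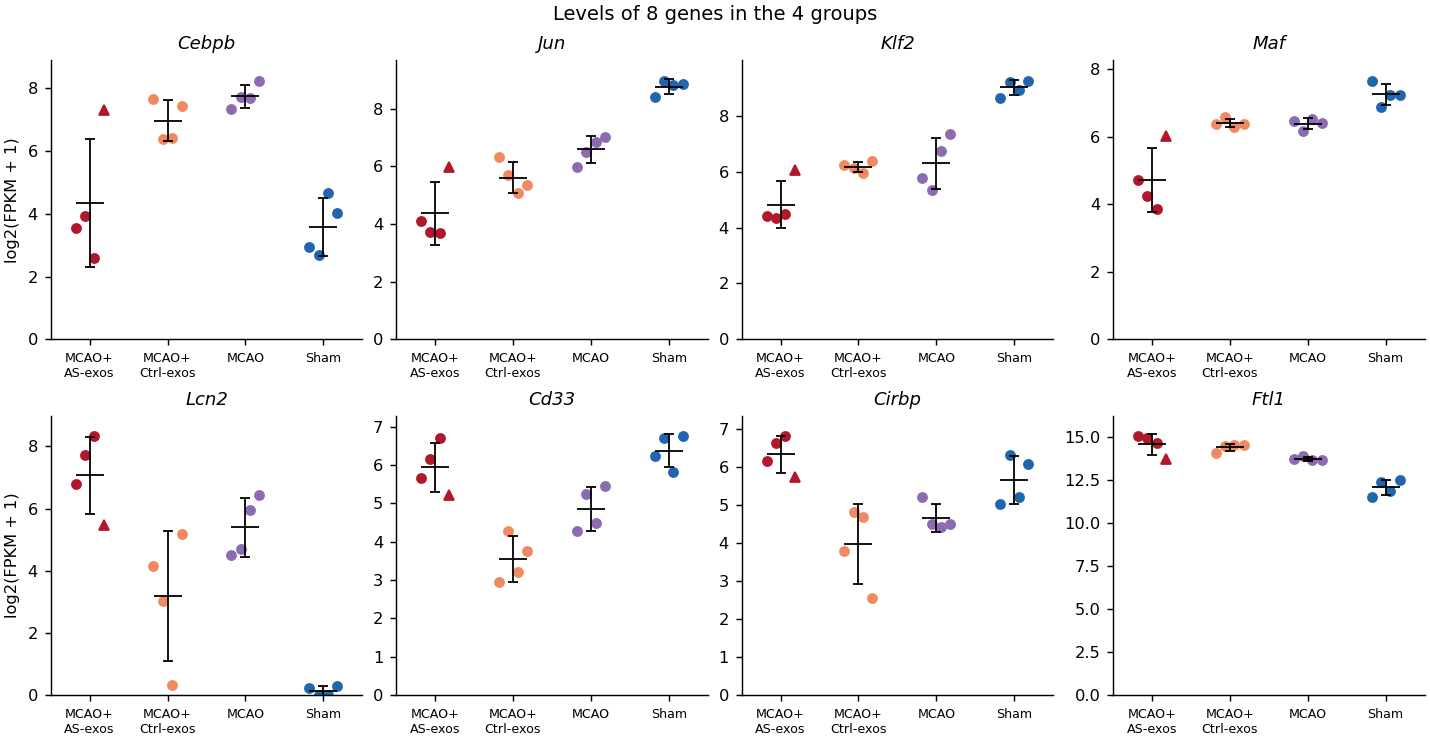
Levels of 8 genes as log2(FPKM + 1) in the 4 groups of 4 libraries, from left to right MCAO+AS-exos (replicate 4 as a triangle), MCAO+Ctrl-exos, MCAO and Sham, with bars for the mean ± SD. For Cebpb, Jun, Klf2 and Maf the triangle lies close to the other stroke groups and above MCAO+AS-exos replicates 1 to 3, while Cd33 and Cirbp are higher in all 4 MCAO+AS-exos libraries than in MCAO+Ctrl-exos.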

How the data were processed

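Microglia-labelled cells of 16 libraries in 4 groups were profiled by RNA-seq on amplified cDNA made into transposon-based, circularized libraries, per the labels' protocols. HISAT2, Bowtie2, RSEM 1.3.1 and GRCm39.p6 appear in the submitters' processing notes without their roles. The deposited values were read as FPKM from the naming of RSEM and from unequal library totals; TPM of a subset of genes cannot be told apart from this, and depth is unknown. The files of the 16 libraries hold the same values as the series table. Groups were taken from the titles.

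Values were taken as log2(FPKM + 1), and the 10846 of 13982 genes that reached 1 FPKM in 4 or more libraries were fitted with limma 3.58.1 (R 4.3.3) over all 4 groups with a mean trend, an adjusted p (Benjamini-Hochberg) of 0.05 being the threshold. The fit was run on simulated data with independent noise in each gene and library. That simulation did not include the likeness of MCAO+AS-exos replicates 1 to 3. Tables and plots were made with Python 3.11.15, pandas 2.3.3, numpy 2.4.6 and matplotlib 3.10.9. Transcript lengths and GC content came from GENCODE M21, and promoter windows from RefSeq on GRCm38.p6. Genes are named if they are among the 12 largest changes in each direction against Sham in the upper 50% of levels without overlap, the 6 largest against each other stroke group, the 10 most abundant in either group, the 4 of lowest p per list, or on a fixed list; further list members were named after their values were seen, and some genes are not reported here. The members and the gene lists were chosen with earlier results of these data known. Same-numbered replicates did not deviate together (residual correlations of -0.148 to 0.0923), so the numbers were not taken as pairs. Alternatives were quantile and total scaling, the pseudocount, the filter, the fit, a replicate block, leaving out each library, and, chosen after seeing the data, averaging MCAO+AS-exos replicates 1 to 3 and removing length and GC trends.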

Additional observations from a re-analysis of the deposited data

Results flagged for a closer look

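For each of 163 named genes, the 4 MCAO+AS-exos and the 4 Sham libraries were searched for a highest or lowest library whose gap to the next, on log2(FPKM + 1), as a share of the group's range, exceeded Dixon's critical value. This picked out 32 of 326 groups of 4, and chance picks about 1 in 20. Of the 18 in MCAO+AS-exos, 16 were replicate 4, the library that stands apart as a whole.

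Replicate 4 was the highest MCAO+AS-exos library for Ccdc152 at 838 FPKM, Chmp4b at 117, Klf2 at 65.7, Nipbl at 14.9, Hras at 9.94, Itgax at 62.1, Nr4a3 at 5.91, Pfkfb3 at 24.2, Smad7 at 9.77, Thbs1 at 453 and Txnrd1 at 56.9 FPKM. It was the lowest for Gpr34 at 6.61 FPKM, Hagh at 12.0, Lyz2 at 4693, Plin2 at 1245 and Rplp0 at 1229 FPKM. Elsewhere in the group, B2m was high in replicate 1 at 9255 FPKM, and F13a1 was high in replicate 3 at 234 FPKM.

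Among Sham libraries, replicate 4 was high for Cx3cr1 at 1354 FPKM and Apoc2 at 4.98 FPKM, and low for Cd86 at 142 FPKM. Abcg1 was low in replicate 1 at 16 FPKM and Mertk in replicate 2 at 115 FPKM. Rhob was high in replicate 3 at 666 FPKM, and Nr4a2 in replicate 1 at 2.36 FPKM. The remaining 7 were genes near 0 in Sham: Aifm2 at 0.04 FPKM and Ptgs2 at 0.01 FPKM in replicate 4, Cd40 at 0.03 FPKM, Ciita at 0.07 FPKM and Nr4a3 at 0.32 FPKM in replicate 2, and Cfb and Gja1 at 0.02 FPKM in replicate 1.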

How the results depend on the processing

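For MCAO+AS-exos against Sham the 4319 calls became 3476 to 4273 when any 1 library was left out. They became 4215 with the replicate number as a block and 4401 after quantile normalization. With totals scaled there were 4240, and the median of all genes moved to -0.09. With length and GC trends removed there were 3877, which held 3270 of the 4319. Relative to the mean of the stroke libraries, the 20% of genes lowest in GC content had medians of 0.25 to 0.78 in Sham libraries. The 20% highest in GC content had medians of -0.135 to -1.05 there. With MCAO+AS-exos replicates 1 to 3 averaged, 2663 genes were called, 1155 of them lower. Of 146 named differences from Sham, 136 passed, and with that averaging 9 of these did not: C1qa, G6pdx, Gclc, Nipbl, Pfkfb3, Rps27, Slc7a11, Timp2 and Tyrobp. The signs that turned belong to differences that had not passed. Alox5 was at -0.12 with that averaging and between -0.14 (without Sham replicate 1) and 0.71 with 1 library left out. Abca1 was at 0.28 with length and GC trends removed. H2-Oa lay between -0.49 (without Sham replicate 3) and 0.39 (without Sham replicate 2) with 1 library left out, and at 0.29 with quality weights per library. Tfrc was at -0.071 with quality weights and between -0.46 (without Sham replicate 4) and 0.50 with 1 library left out, and Spp1 against MCAO at 0.17 with quality weights and between -0.46 and 0.18 (without MCAO replicate 1) with 1 library left out. Calls against MCAO, 666 in all, were 318 after quantile normalization (30.2% of them higher, beside 17.3%), 3955 with quality weights, 31 in a fit of the 8 libraries alone, 340 with length and GC trends removed, 0 with the averaging, 460 with the block, and 0 to 2024 with 1 library left out. Calls against MCAO+Ctrl-exos, 31 in all, were 88 after quantile normalization, 93 with a minimum of 5 FPKM, 16 without the mean trend, 3266 with quality weights, 9 in a fit of 8 libraries, 95 with length and GC trends removed, 1 with the averaging, 68 with the replicate block and 1 to 1297 with 1 library left out. The block changed 2 calls among named genes against Sham, C1qa (adjusted p = 0.0575) and Ctss (0.0319). The cause of these shifts was not tested. Without read counts, the precision of low values and the likeness of MCAO+AS-exos replicates 1 to 3 cannot be set against sampling noise.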

Other observations

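Further gene lists gave the following counts between MCAO+AS-exos and Sham, beside 20.7% of all tested genes higher and 19.1% lower. Hypoxia-response genes rose in 6 of 17 tested members and fell in 3 (median 0.51, or -0.02 with trends in length and GC content removed). Hilpda, which blocks triglyceride breakdown in lipid droplets, was at 241, 314, 249 and 231 FPKM in MCAO+AS-exos libraries and at 5.75, 15.6, 19.1 and 13.2 FPKM in Sham libraries (4.27 ± 0.38, adjusted p = 3.00e-08), while the collagen hydroxylase P4ha1 fell (-2.40 ± 0.30, adjusted p = 3.10e-06). Cholesterol synthesis genes rose in 6 of 21 and fell in 0, with the mevalonate pathway kinase Pmvk (3.37 ± 0.64) among those that rose; with MCAO+AS-exos replicates 1 to 3 averaged, 2 rose. The unfolded protein response list had 3 of 21 higher and 9 lower. Herpud1, which supports degradation of misfolded proteins, was at 44.7, 39, 59 and 22.6 FPKM in MCAO+AS-exos libraries and at 243, 358, 288 and 275 FPKM in Sham libraries (-2.85 ± 0.33, adjusted p = 1.20e-06), and the disulfide isomerase Pdia6 rose (1.18 ± 0.19).

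Among apoptosis and p53 targets 12 of 27 rose and 3 fell. The pore-forming protein Bax was at 222, 280.4, 216 and 378 FPKM in MCAO+AS-exos libraries and at 22.1, 41.4, 40.3 and 53.1 FPKM in Sham libraries (2.80 ± 0.27, adjusted p = 1.08e-07), and the cell cycle inhibitor Cdkn1a rose by 2.78 ± 0.34. With replicates 1 to 3 averaged, 6 of these genes rose and 2 fell. Interferon-response genes rose in 12 of 30 and fell in 3 (median 0.90), with the DNA-sensing family member Ifi207 at 102, 74.4, 116 and 60.9 FPKM in MCAO+AS-exos libraries and 0.07, 0.44, 9.13 and 1.61 FPKM in Sham libraries (5.10 ± 0.47, adjusted p = 5.11e-08). The number of interferon-response genes that fell was 1 with MCAO+AS-exos replicates 1 to 3 averaged, 1 without Sham replicate 3 and 5 without Sham replicate 2 or 4. Dendritic cell markers rose in 5 of 13 and fell in 3, or in 6 after quantile normalization. They summed to 518 to 826 FPKM in MCAO+AS-exos libraries and to 2214 to 2645 FPKM in Sham libraries. Siglech, which is also in the homeostatic microglia list, was among those that fell. The cytokine receptor Flt3 was at 8.5, 12.3, 12.2 and 10.9 FPKM in MCAO+AS-exos libraries and at 0.02, 0, 0 and 0.06 FPKM in Sham libraries (3.54 ± 0.47, adjusted p = 5.73e-06). Of the lists of other cells, 5 of 8 red cell, 10 of 15 endothelial and mural, 10 of 13 oligodendrocyte and 3 of 10 B cell markers were analysed here. Red cell markers summed to 0 to 13.7 FPKM in MCAO+AS-exos libraries and 2 to 93.3 FPKM in Sham libraries, and endothelial and mural markers to 6.51 to 68 FPKM in MCAO+AS-exos and 3.33 to 9.06 FPKM in Sham libraries, where the highest MCAO+AS-exos value, in replicate 4, came with Ly6c1 at 1.96, 7.17, 19.7 and 49.5 FPKM in the 4 MCAO+AS-exos libraries and 0 in all Sham libraries. Oligodendrocyte markers summed to 26.3 to 57.6 FPKM in MCAO+AS-exos and 13 to 32.2 FPKM in Sham libraries, and B cell markers to 5.63 to 17.1 FPKM in MCAO+AS-exos and 8.71 to 50.1 FPKM in Sham libraries.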
